A study of Drosophila melanogaster with 3 samples.

Results

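Binding of the transcription factor Myc was examined at 9 genes of the Drosophila melanogaster cell death pathway, out of 13945 protein-coding genes on the main chromosome arms. The genes were taken by name: rpr, hid, grim and skl, Diap1, Dronc, Drice, Dark and p53. Myc, the product of the fly gene dm, had been mapped by chromatin immunoprecipitation and sequencing in whole embryos of both sexes aged 0 to 16 h. The embryos came from 1 transgenic line that stably carries dm fused to green fluorescent protein at the C terminus, and chromatin was precipitated through the tag. All samples belong to 1 group of 3 biological replicates, with no untagged or mutant embryos, so values were compared between genes and between replicates. Since whole embryos were pooled, a peak from few cells and a weak peak in many cells cannot be told apart. Sequencing depth is unknown, as only peak lists were used. No test was run on the 9 genes as a list, and their counts are set beside the share of all protein-coding genes called by the same rule.

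In the fly, apoptosis is held back by Diap1, an inhibitor of apoptosis protein with ubiquitin ligase activity that binds caspases. The small proteins Reaper (rpr), Hid, Grim and Sickle (skl) bind Diap1 and displace it or cause its loss. The initiator caspase Dronc is activated on a platform built by Dark, the fly relative of Apaf-1, and then cleaves the effector caspase Drice. The transcription factor p53 induces rpr, hid and skl after DNA damage, in part through a radiation-responsive element known upstream of rpr. In imaginal discs, excess Myc is known to raise cell death together with growth, and cells with less Myc than their neighbours are removed by apoptosis.

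Myc peaks that passed the irreproducible discovery rate threshold (IDR peaks) lay within 500 bp of a transcription start at hid, Dronc and p53, which is 3 of 9 genes against 26.0% of all protein-coding genes. Diap1 was the 1 gene with an IDR summit in its body outside these windows, a class that took in 5.56% of all protein-coding genes and 26.0% of those of at least 10 kb. The gene spans 12625 bp. In the 3 genes rpr, Drice and Dark, IDR summits were found only outside the gene, up to 20 kb away. For grim and skl there was none within that distance. Thus 7 of 9 genes had an IDR summit in the gene or within 20 kb, against 77.2% of all protein-coding genes, a share near the background. The same number of the 9 genes had one within 10 kb, against 64.3%, and within 5 kb, against 52.5%. In all, 17 distinct IDR summits were found: 4 at promoters, 1 in a gene body and 12 in the flanks, of which 8 lay within 500 bp of a coding start of another gene.

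**Figure D1:**
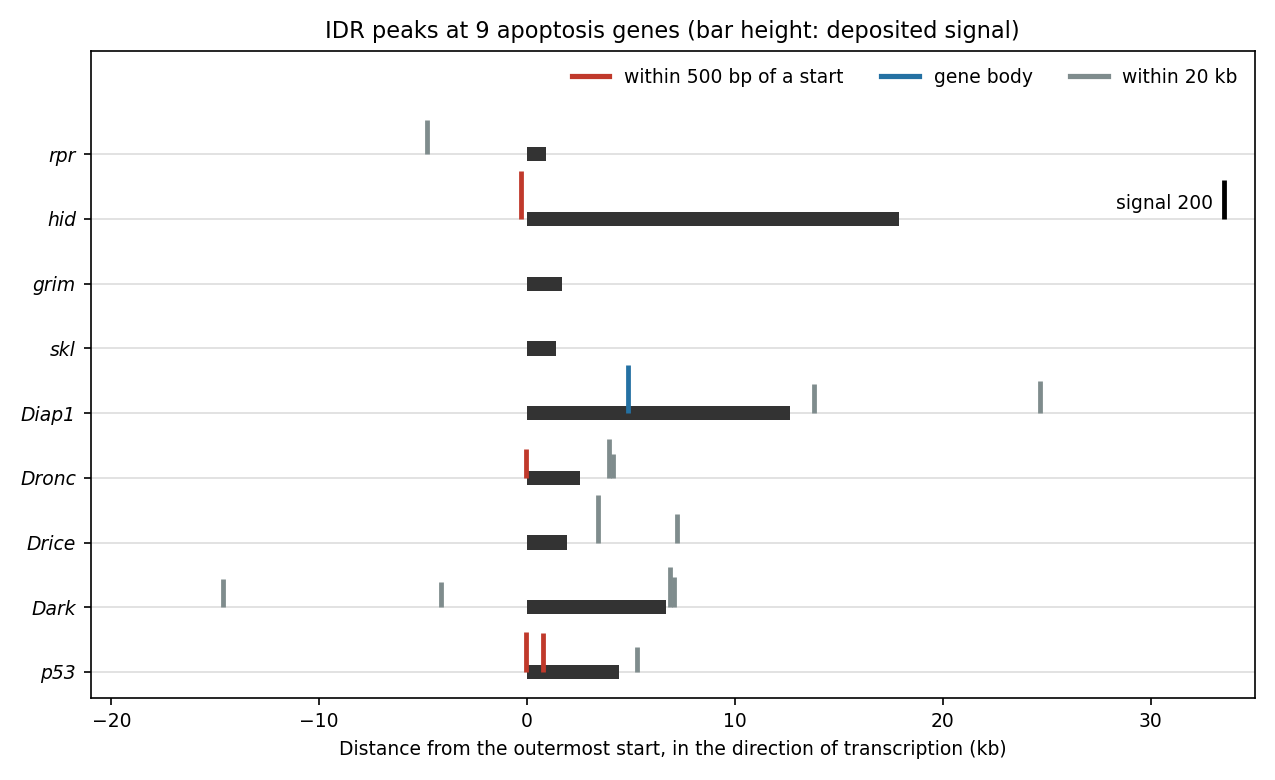
Position of the 17 IDR summits at the 9 genes, as distance in kb from the outermost start in the direction of transcription. The black bars are the genes, and the height of each coloured line is the deposited signal (scale bar 200). The lines at a start belong to hid, Dronc and p53, the one inside a gene to Diap1, and grim and skl have none.

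The DNA under 6 of the IDR summits is given below. Each line is read in the direction of transcription of the gene named and covers 50 bp to each side of the summit, in dm6. Capitals mark a pair of adjacent p53 decamers in the rpr window and TATCGATA, bound by the factor DREF, in the first p53 window. Searches on both strands covered 4 E-box words, the canonical CACGTG, its variant CACGCG, the weaker Myc site CATGTG and the common E-box CAGCTG. None of these was present in the 6 windows.
rpr upstream, chr3L:18403202-18403302, minus strand: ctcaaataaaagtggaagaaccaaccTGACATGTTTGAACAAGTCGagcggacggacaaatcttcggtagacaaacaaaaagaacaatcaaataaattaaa
hid promoter, chr3L:18185899-18185999, minus strand: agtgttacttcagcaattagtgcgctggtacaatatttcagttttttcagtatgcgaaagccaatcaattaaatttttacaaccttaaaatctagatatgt
Diap1 intron, chr3L:16046130-16046230, minus strand: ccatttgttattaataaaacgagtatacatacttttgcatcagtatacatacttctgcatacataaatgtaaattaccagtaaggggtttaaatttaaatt
Dronc promoter, chr3L:9968365-9968465, plus strand: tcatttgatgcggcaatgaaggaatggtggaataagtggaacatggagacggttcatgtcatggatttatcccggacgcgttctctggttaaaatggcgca
p53 first start, chr3R:23054100-23054200, minus strand: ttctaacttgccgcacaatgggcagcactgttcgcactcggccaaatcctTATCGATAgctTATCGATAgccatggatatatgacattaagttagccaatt
p53 inner start, chr3R:23053266-23053366, minus strand: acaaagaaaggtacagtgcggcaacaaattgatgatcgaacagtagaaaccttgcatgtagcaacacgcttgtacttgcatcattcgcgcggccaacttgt

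The canonical Myc site CACGTG was present farther from the summit in 2 of these peaks, at hid and at the inner p53 start. They are shown with 20 bp to each side, CACGTG in capitals.
hid, chr3L:18185736-18185781, minus strand: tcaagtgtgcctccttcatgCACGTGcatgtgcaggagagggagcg
p53, chr3R:23053080-23053125, minus strand: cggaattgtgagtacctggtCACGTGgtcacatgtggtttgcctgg

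Of the 4 genes that antagonise Diap1, hid (FBgn0003997, 3L, 18167745 to 18185641, minus strand) had the strongest peak and the 1 promoter peak. Hid is the largest of the 4 antagonists and a target of Ras and MAP kinase signalling. Its IDR peak (18185724 to 18186173) had a deposited signal of 245, against a median of 186 over 2991 promoter IDR peaks, and ranked 926 among them. The summit lay upstream of the single annotated start (-308 bp), outside the gene. In the replicates' own lists the signal of this peak was 58.4 in replicate 1, 75.7 in replicate 2 and 117 in replicate 3. Divided by the median signal of the IDR peaks found in the same replicate, which gives a relative signal, these were 0.881, 1.42 and 1.81, a mean of 1.37 ± 0.468 (SD, n = 3). Replicate 1 was thus below the typical IDR peak and the other two above it. The CACGTG of the peak lay 190 bp from the summit and closer to the start (-118 bp), next to a CATGTG, another E-box. With a promoter window of 250 bp to each side in place of 500 bp, hid was no longer called.

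At rpr (FBgn0011706, 3L, 18397535 to 18398435, minus strand), which codes for the smallest of the death inducers, no list held a summit within 500 bp of the start or in the gene, the relaxed lists included. One IDR peak lay upstream at 18403027 to 18403476, with its summit at -4817 bp from the rpr start, the nearest coding start. Its signal was 176, at rank 2194 of 4371 IDR peaks and so close to the median of the list. The summit matched a peak within 100 bp in replicate 1 (signal 62.8, relative signal 0.946) and in replicate 3 (53.8, 0.834). Replicate 2 had a summit 157 bp away, where the signal reached 64.3 (relative signal 1.21), and this was not counted as the same peak. The pooled relaxed list held a second summit farther upstream (signal 91.2), which was not in the IDR list. It lay at -217810 bp from the hid start, against -217611 bp for the IDR summit. The replicate 2 summit was closer to this second summit than to the IDR summit. Both matched replicates lay below their median IDR peak, with a mean relative signal of 0.890 ± 0.0792 (SD, n = 2).

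The rpr upstream window held a pair of adjacent p53 decamers at 18403257 to 18403276, centred 14 bp from the IDR summit. Each decamer had 1 mismatch to the p53 consensus. The summit of replicate 2 (18403409), at 157 bp from the IDR summit, lay outside this window. With up to 1 mismatch allowed per decamer, such a pair was found within 50 bp of the summit in 8 of 4371 IDR peaks (0.183%) and anywhere in the peak in 27 (0.618%). Of the 17 IDR peaks at the 9 genes, the rpr peak was the 1 that held it. The consensus reads the same on both strands, and the search was added after the peak had been seen. A match of letters does not show that p53 was bound there. None of the 4 E-box words was present in the whole rpr peak, against 54.6% of all IDR peaks that held at least 1.

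Neither grim (FBgn0015946, 3L, 18302719 to 18304417, minus strand) nor skl (FBgn0036786, 3L, 18438561 to 18439942, minus strand) had an IDR summit in reach. The nearest to grim, whose product acts beside Reaper and Hid in embryonic cell death, lay just past the limit, 21255 bp beyond the end of the gene. The nearest to skl, which p53 induces after irradiation, was the rpr upstream peak at 35309 bp. Of all protein-coding genes, 22.1% had a nearest summit as far from a start as grim or farther, and 14.2% as far as skl. In the relaxed lists, skl had a summit at its start in the pooled list (-88 bp, signal 48.9), in replicate 1 (-23 bp, 21.0) and in replicate 2 (-93 bp, 21.6), and none in replicate 3. A promoter summit of grim appeared in replicate 1 alone, with a signal of 13.4 at rank 29155 of 29853. The skl summits stood near the middle of their lists, at percentiles of 46.3 (pooled), 54.9 and 64.2, and the grim summit near the bottom of its list, at 2.34. The pooled relaxed list is labelled as holding background besides peaks, so a weak summit in it need not be a site of binding.

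The 4 antagonists lie in 1 cluster on arm 3L, which from the 3′ end of hid to the start of skl spans 272198 bp and held 7 IDR summits. This is 2.57 summits per 100 kb, against 3.02 on the whole arm and 3.26 over all main arms. The top lists, which hold the 4371 strongest peaks of a replicate, had 6, 9 and 7 summits in replicates 1, 2 and 3. Per 100 kb these were 2.20, 3.31 and 2.57, against 3.04, 2.99 and 3.03 on the arm, so the cluster was below the arm in replicates 1 and 3 and above it in replicate 2. In every relaxed list, summits were denser in the cluster than on the arm. The pooled list had 21.7 per 100 kb against 18.1. Replicates 1, 2 and 3 had 24.2, 26.1 and 22.8 against 22.1, 19.1 and 19.3. Besides the hid promoter peak, 5 of the 7 IDR summits lay between hid and grim, in no annotated gene. The strongest of these (18235918 to 18236092, signal 334, rank 715) lay at -50367 bp from the hid start, and its relative signal was 1.61, 1.71 and 2.06 in replicates 1, 2 and 3, a mean of 1.79 ± 0.239 (SD, n = 3). It was higher than the peak at the hid promoter in the IDR list and in each replicate. A further peak at -95823 bp from hid (18281239 to 18281688, signal 277) had relative signals of 1.18, 0.788 and 1.95. The remaining 3 had signals from 117 to 135. The coding start nearest to the strongest of these peaks was that of CheA75a (-16080 bp). For the peak at -95823 bp from hid it was that of CG5103 (12798 bp). For the others it was that of CG7320 or CheA75a, so hid and grim were the nearest for none. Which gene, if any, these peaks serve cannot be read from peak lists. Between that last peak at -95823 bp and the rpr upstream peak, across grim, no IDR summit was found.

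**Figure D2:**
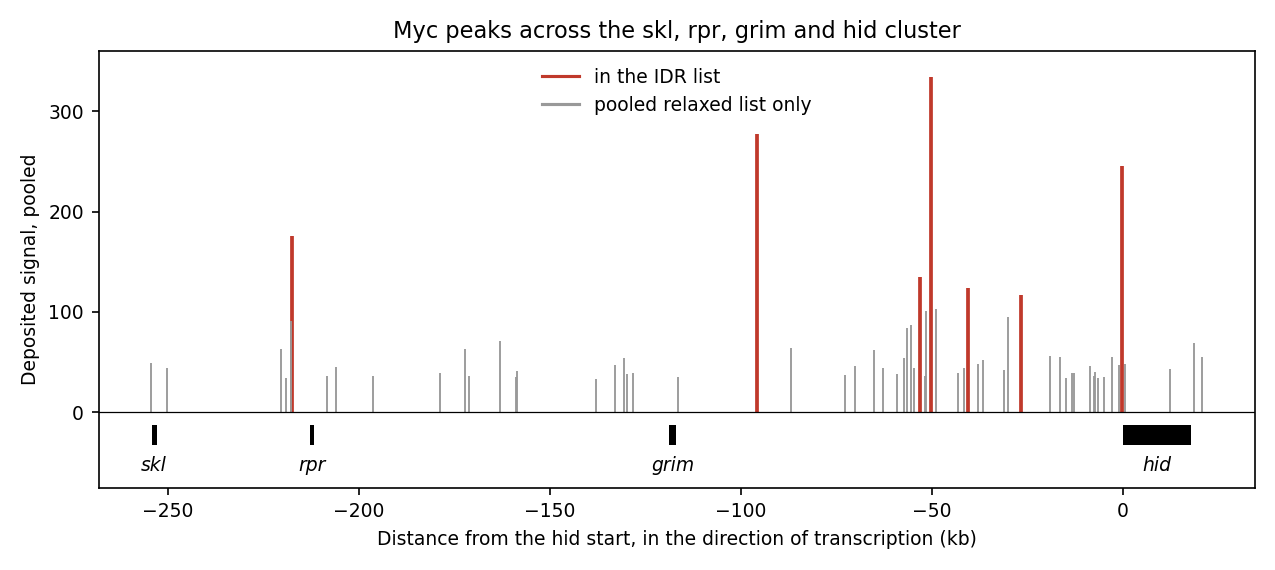
Deposited signal of the pooled peaks across the cluster of skl, rpr, grim and hid, against distance in kb from the hid start in the direction of transcription. Black bars are these genes, and other genes of the region are not drawn. The 7 red lines are in the IDR list, the grey lines in the pooled relaxed list alone. The strongest red line (334) stands between grim and hid, and the one left of rpr (176) is the upstream peak.

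Diap1 (FBgn0260635, also known as thread, 3L, 16038410 to 16051034, minus strand) had its IDR peak inside the gene. The gene has 5 annotated starts, and the peak (16046118 to 16046322, signal 243, rank 1225) lay in an intron, 666 bp downstream of the nearest of them. The replicate signals were 80.4, 86.3 and 91.0, with relative signals of 1.21, 1.62 and 1.41 and a mean of 1.42 ± 0.205 (SD, n = 3). This was the 1 peak in a gene or at its promoter that lay above the median IDR peak in every replicate. With a window of 1000 bp to each side of a start it counted as a promoter peak. Replicate 2 also had a promoter summit in its top list, 314 bp inside the same start, with a signal of 44.5.

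Summits of the pooled relaxed list, which by its label also holds background, were dense in Diap1. There were 8 in the gene, the IDR summit among them, or 0.634 per kb. The median over the 1977 coding genes of at least 10 kb was 0.162 per kb, and 2.33% of them were as dense or denser. These 1977 genes were not matched to Diap1 for length or for number of starts, of which it has 5. By the same count hid, of 17897 bp, had 2 summits in the gene (0.112 per kb), and 61.6% of these genes were as dense or denser. In the Diap1 flanks, 2 further IDR peaks were found, one in the 3′ untranslated region of CG5895 (signal 150), 1183 bp beyond the end of Diap1, and one in an intron of Notum (signal 165), which codes for a secreted antagonist of Wingless.

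**Figure D3:**
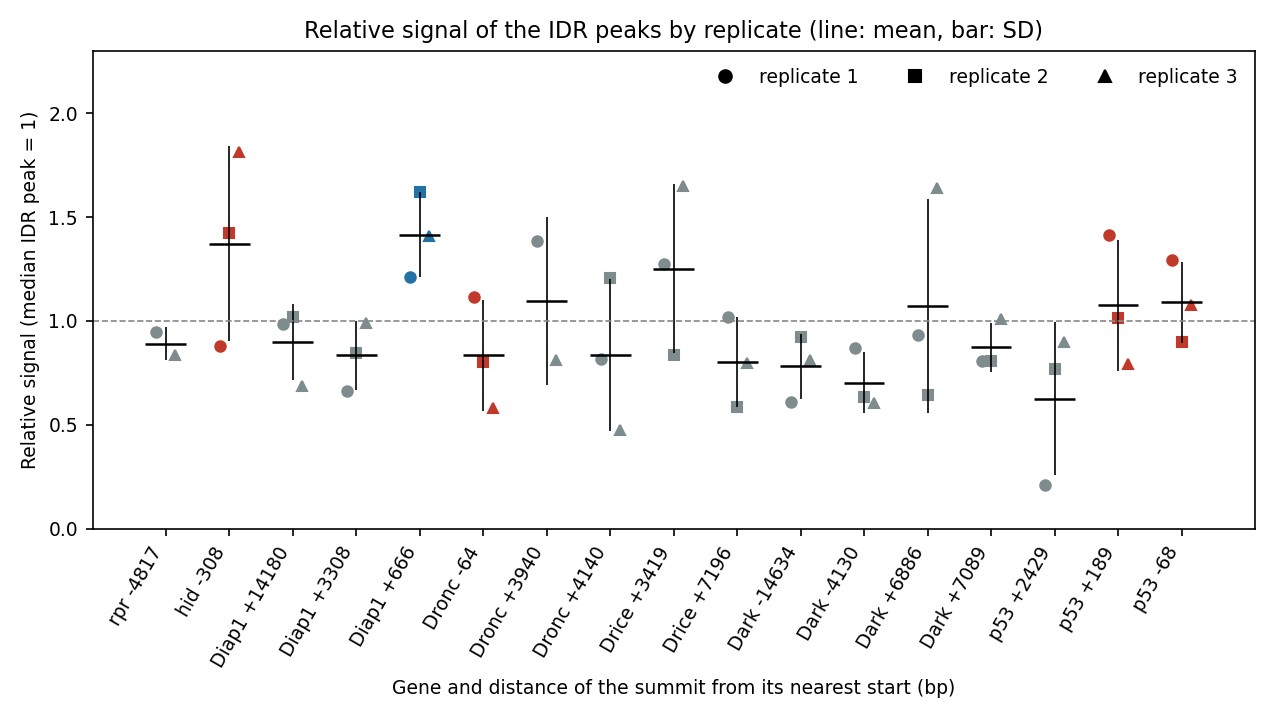
Relative signal of each of the 17 IDR peaks in the 3 replicates (1 is the median IDR peak of that replicate, dashed), labelled by gene and by the distance in bp of the summit from its nearest start. Horizontal lines are means, vertical bars SD, red promoter, blue gene body and grey flank peaks, and a replicate without a matching summit has no point. The blue Diap1 peak is above 1 in all 3 replicates, while the red hid, Dronc and p53 peaks each have a replicate below 1.

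Of the 3 genes of the caspase machinery, Dronc (FBgn0026404, 3L, 9968479 to 9971002, plus strand) was called at its promoter. The peak (9968190 to 9968639) was weak, with a signal of 146 and rank 2100 of 2991 promoter IDR peaks, and its summit was close to the start (-64 bp). The start of CG6685 was also within 500 bp. Signals of 74.0, 42.8 and 37.5 in replicates 1, 2 and 3 gave relative signals of 1.12, 0.805 and 0.582, a mean of 0.834 ± 0.268 (SD, n = 3). The peak was above the median IDR peak in replicate 1 alone, and in replicate 3 it ranked 4612, outside the top list. Beyond the 3′ end of Dronc, an overlapping pair of IDR peaks (signals 196 and 119) lay at the starts of vnc and CG42455.

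Drice (FBgn0019972, 3R, 29799658 to 29801584, plus strand), the main effector caspase, had no IDR peak of its own and came close to one. The pooled relaxed list held a summit upstream of its start (-297 bp) with a signal of 110, whereas the lowest signal in the IDR list was also 110 (110.3 against 109.6 at Drice). Each replicate had a summit there, with signals of 32.4, 34.7 and 32.8, at ranks 6625, 4595 and 5479. All 3 replicates thus held the peak outside the top 4371. The IDR peaks near Drice belonged to the starts of other genes. A peak of signal 242, at 1493 bp past its end, lay between CG7789 and Etfb, and one of 147 lay at ca and ncd, the latter coding for a minus-end-directed kinesin.

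Dark (FBgn0263864, 2R, 17020027 to 17026703, plus strand) had no summit in a promoter window or in the gene in any list, relaxed lists included. It nevertheless had 4 IDR summits within 20 kb, as many as or more than which were found at 30.0% of all protein-coding genes. Each lay at the start of another gene. Overlapping peaks with signals of 204 and 152 lay at RhoGEF2, which codes for an activator of the GTPase Rho1, and the nearer summit was 210 bp past the end of Dark. The others were at Ehbp1 (127) and between CG6805 and NiPp1 (146). Only when any overlap of the peak with the gene was counted, in place of the summit, did Dark gain a peak in its body, through the RhoGEF2 peak.

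p53 (FBgn0039044, 3R, 23049657 to 23054082, minus strand) was the 1 gene of the 9 with a pair of promoter IDR peaks. It has 3 annotated starts. The first peak (23053925 to 23054374, signal 204) was centred at -68 bp from the outermost start. Its replicate signals were 85.7, 47.8 and 69.5, with relative signals of 1.29, 0.899 and 1.08 and a mean of 1.09 ± 0.197 (SD, n = 3). The second peak (23053091 to 23053540, signal 201) lay 189 bp downstream of an inner start, in an intron of p53 and an exon of the antisense gene CR46089. Its signals of 93.9, 54.0 and 51.3 gave relative signals of 1.42, 1.02 and 0.795, a mean of 1.08 ± 0.314 (SD, n = 3). The pair differed by less than the spread between replicates, and each replicate held both in its top list. They ranked 1276 and 1319 of 2991 promoter IDR peaks.

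The p53 peaks differed in the words they held. TATCGATA occurred in 2 copies beside the first summit, centred 4 and 14 bp away. At least 1 copy lay within 50 bp of the summit in 2 of the 17 IDR peaks, against 4.71% of all IDR peaks. The other of these was the peak at Ehbp1 near Dark. A further word searched, GGTCACAC, was within 50 bp in none of the 17 (3.68% of all IDR peaks). The second p53 peak held CACGTG at 214 bp from the summit, found in 13.0% of all IDR peaks when the whole peak was searched. One more IDR peak (signal 127) lay 856 bp past the 3′ end of p53. Its relative signals were 0.209, 0.767 and 0.901, lowest in replicate 1, where the summit ranked 27574.

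Within 50 bp of the summit, an E-box word was found in 2 of the 17 IDR peaks at these genes, against 23.1% of all IDR peaks, and neither was CACGTG (6.02% of all). They were a CATGTG at the vnc and CG42455 starts beside Dronc and a CAGCTG in the peak past p53. Over the whole peak the count was 8 of 17, against 54.6%. Ordered by mean relative signal, the peaks at promoters and in bodies ran from Diap1 (1.42) and hid (1.37) through the p53 pair (1.09 and 1.08) to Dronc (0.834). Neighbours in this order overlapped in their replicate values, while the 3 Diap1 values (1.21 to 1.62) all exceeded the 3 of Dronc (0.582 to 1.12). Of the 17 peaks, 8 were shared by every top list (47.1%, against 51.3% of all IDR peaks).

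Among the relaxed lists, promoter summits were found for 6 of 9 genes in the pooled list, against 54.0% of all protein-coding genes. That list keeps weak peaks and, by its label, background. In replicates 1, 2 and 3 the counts were 7, 6 and 5, against 56.2, 53.5 and 52.8%. In the stronger 2185 IDR peaks, 2 of 9 genes were called (hid and p53), against 15.2%, and with each peak assigned to 1 nearest start 3 were, against 19.1%. In the top lists of replicates 1, 2 and 3, 3, 4 and 2 of the 9 genes had one, against 26.4, 24.6 and 24.5% of protein-coding genes. The promoters of hid and p53 were in all 3 top lists, Dronc in those of replicates 1 and 2, and Diap1 in that of replicate 2. By percentile within the replicate's whole relaxed list, the best promoter summit of p53 stood between 91.7 and 96.1, that of hid between 91.0 and 97.1, Dronc between 82.2 and 93.9, Drice between 77.8 and 82.4, and Diap1 between 62.9 and 88.2.

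**Figure D4:**
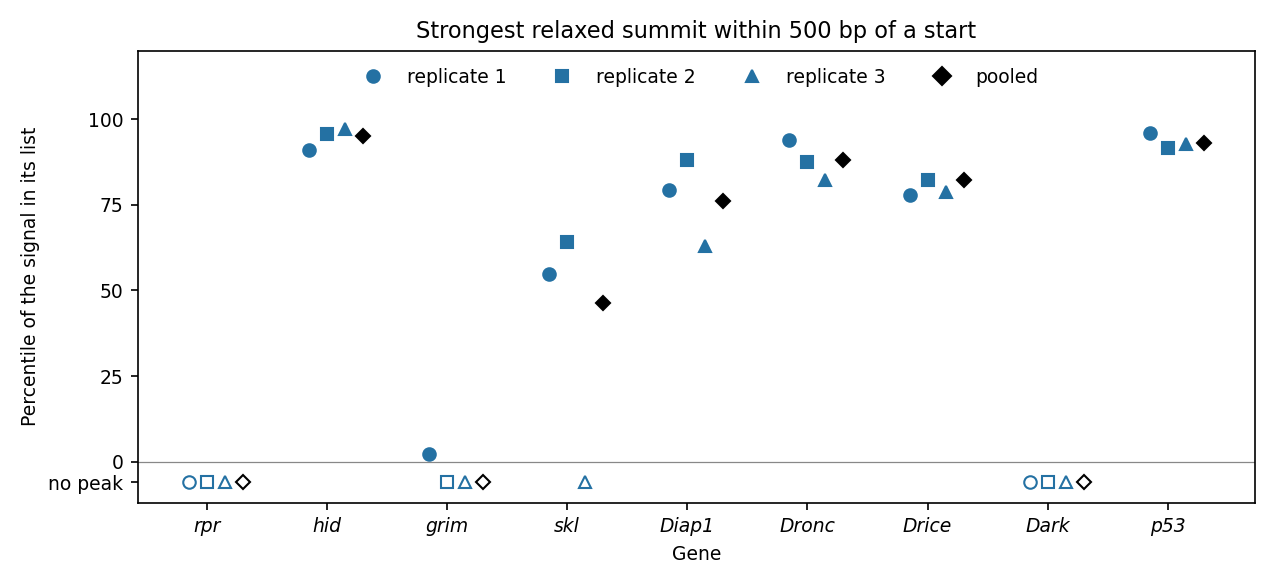
Percentile, within each relaxed list, of the strongest summit within 500 bp of a start of each gene (100 is the strongest peak of the list), for the 3 replicates and the pooled list. Open symbols on the lowest line mark lists without such a summit. The hid and p53 points lie at 91.0 or above in every list, those of rpr and Dark are all open, and grim has 1 filled point, at 2.34.

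Other genes of the pathway were counted for comparison, in 6 lists of 51 genes chosen by name. Of these, 21 had a promoter IDR peak (41.2%, against 26.0% of all protein-coding genes). In the top lists of the replicates 21.7 ± 0.577 had a promoter summit (SD, n = 3). The shares of all protein-coding genes in the top lists of replicates 1, 2 and 3 were 26.4, 24.6 and 24.5%. Single lists varied more: for the DNA damage and p53 pathway the top lists of replicates 1, 2 and 3 gave 5, 3 and 7 genes, and for the other caspases 1, 2 and 0. When only IDR peaks in the top lists of both replicates 2 and 3 were kept, the total was 13, against 17.5% of all protein-coding genes. The median signal of their highest promoter peaks was 210, against 197 over all bound coding genes. In 13 of the 21 genes (61.9%) the peak had the start of another coding gene in reach, so it cannot be assigned to the named gene alone. Of all promoter IDR peaks, 39.7% had starts of 2 or more coding genes in reach. That share counts peaks, each once, whereas a count of genes takes in a shared peak once per gene. The shares therefore differ in unit, and no excess can be read from them. CACGTG lay within 50 bp of the summit in 2 of the 21, morgue and Traf6, against 6.85% of all promoter IDR peaks.

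Other inhibitor of apoptosis proteins (IAPs) and regulators of IAPs were bound in 6 of 9 cases, the IAP genes Bruce and Diap2 among them. Det, Prx4 and Cul3 had no promoter IDR peak. The share bound was 66.7% here and 50% in the Bcl-2 list below, against 26.0% of all protein-coding genes. The strongest of the 6 was morgue (signal 405, shared with Elp3), whose product promotes Diap1 turnover. The relative signal of the morgue peak was 2.66, 2.65 and 1.57 in replicates 1, 2 and 3. The next were the ubiquitin ligase gene Ubr3 (268), eff (265), which codes for a ubiquitin-conjugating enzyme, Bruce (220, shared with CG12818), the mitochondrial protease gene HtrA2 (211, shared with mRpL11) and Diap2 (158, shared with bug). For each of these 6 except Diap2, the highest promoter peak was in every top list. Of 6 genes of the Bcl-2 family and of mitochondrial death proteins 3 were bound, the cytochrome c genes Cyt-c-d (357, shared with CG31808) and Cyt-c-p (178) and the apoptosis-inducing factor gene AIF (210). The Bcl-2 relatives Buffy and Debcl had no promoter IDR peak, nor did EndoG.

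Of the 5 other caspase genes, Dcp-1 (141, shared with pita) and Dredd (126, shared with su(sable)) had weak promoter peaks, and Strica, Damm and Decay had none in the IDR list. The share bound was 40% here and 40% for the DNA damage and p53 pathway. It was 36.4% for Eiger and JNK and 20% for nucleases and engulfment, against 26.0% of all protein-coding genes. Of 10 genes of the DNA damage and p53 pathway 4 were bound, Irbp18 (351, shared with APP-BP1), mei-41 (166, shared with TH1), nbs (127, shared with defl) and grp (118, shared with squ). The nbs peak had a matching summit within 100 bp in replicate 1 alone. The kinase gene mei-41 is the fly ATR and grp the fly Chk1. The list of the ligand Eiger and the JNK pathway had 4 of 11 genes bound, Traf6 (267, shared with GIIIspla2), the kinase genes Tak1 (177) and hep (140) and the ligand gene egr (126). Nucleases and engulfment genes were bound in 2 of 10 cases, mbc (544, shared with Nup98-96) and ced-6 (210).

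**Figure D5:**
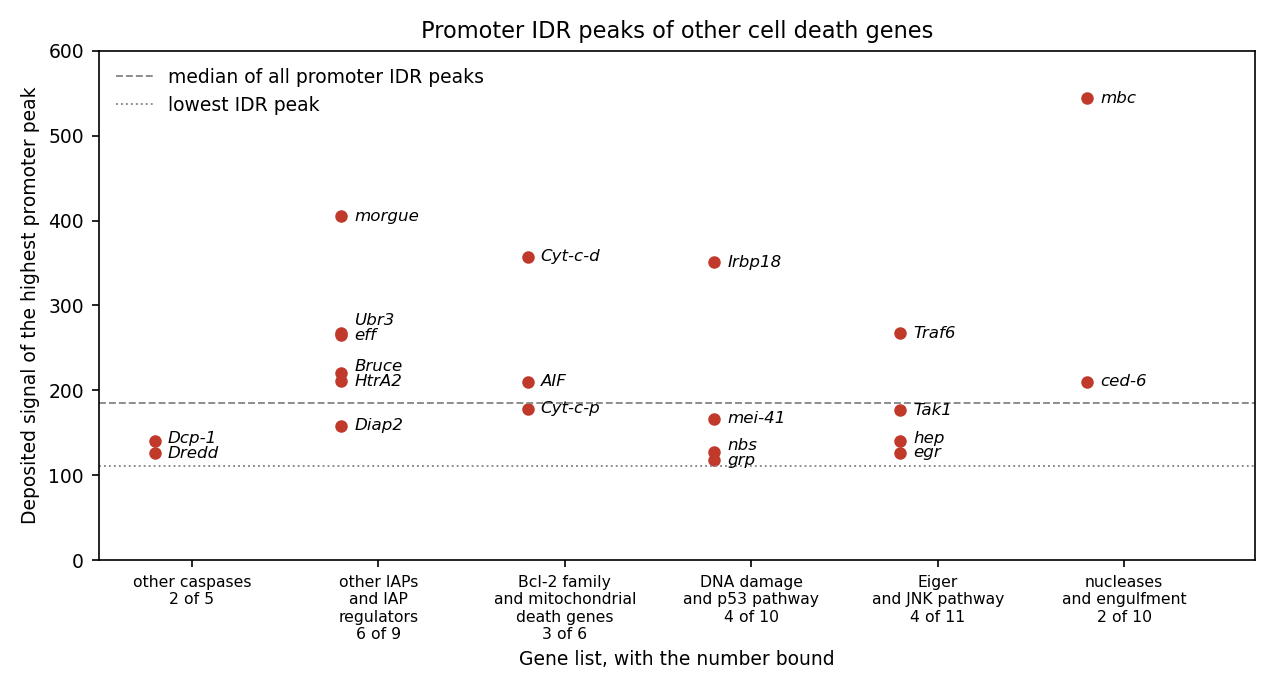
Deposited signal of the highest promoter IDR peak of each bound gene in 6 lists of other cell death genes, with the number bound of the number in the list. The dashed line is the median of all promoter IDR peaks (186) and the dotted line the lowest IDR peak (110). The 2 caspase genes lie below the dashed line, and mbc (544) and morgue (405) are the highest.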

How the data were processed

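Peak lists of 3 biological replicates of dm-GFP embryos were used on dm6. Per the file listing deposited with the samples, 1 relaxed list per replicate and 1 pooled list came from alignments and a control file, and these 4 gave the IDR list. The pooled list is labelled peaks and background as input for IDR. Signal values are used as the authors deposited them. Aligner, caller, IDR threshold and signal scaling: not given in the sources used here. All 4371 IDR peaks recur in the pooled list (24667 peaks) with the same ends, and the replicates' lists held 29853, 26058 and 25842. The hid, Diap1 and Dronc peaks ranked 1207, 1225 and 2925 in both the pooled and the IDR list. A summit within 100 bp was found for 96.7, 93.7 and 94.1% of IDR peaks in replicates 1, 2 and 3. A place in the IDR list therefore does not mean a matching summit in every replicate. Chromatin was sonicated to 200 to 800 bp, per the labels. No source used here says how the replicates' embryos were collected.

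Starts came from Ensembl release 115 and DNA from the RefSeq copy of the same assembly. A gene was called at a promoter when a summit lay within 500 bp of any start, and flanks reached 20 kb. Replicate peaks were matched by the strongest summit within 100 bp. The promoter and matching steps were run on simulated summits as a check of the code only. The promoter check placed summits by the same window rule that calls them. A match to a wrong neighbouring summit could not fail the matching check. Python 3.11.15 and NumPy 2.4.6 were used. Members and lists were chosen with earlier results of these data known. Named were all 9 genes, bound pathway genes, genes sharing a peak and the nearest start of each flank peak. Unbound pathway genes and the peaks between hid and grim, with their nearest starts, were named after values were seen. The p53 decamer search was also added then. Of 60 symbols, 1 (Ced-6) matched through a synonym. The dm3 lists were not used here.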

Additional observations from a re-analysis of the deposited data

How the results depend on the processing

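No paired analysis was possible because the samples form 1 group. The count of 3 genes called at a promoter was 2 with a window of 250 bp (hid lost; 22.3% of all protein-coding genes) and 4 with 1000 bp (Diap1 gained; 28.9%), 2 with the stronger 2185 IDR peaks (Dronc lost; 15.2%), and 3 with any overlap (27.4%) or with 1 nearest start per peak (19.1%). It rose to 6 in the pooled relaxed list, where 54.0% of all protein-coding genes were called. Without replicate 1, 2 or 3, which keeps only IDR peaks in both other top lists, it ranged from 2 to 3, against 17.5 to 19.1%, and hid and p53 were called each time. Genes with a body peak numbered 2 with any overlap (Dark gained, 6.17%) and 1 with each replicate left out (3.51 to 3.87%). Genes with a summit within 20 kb numbered 7 at 10 kb (64.3%) and 5 kb (52.5%) too, 6 in the stronger 2185 peaks (61.5%) and 5 to 7 without a replicate (65.9 to 69.5%). Pathway genes called fell from 21 to 13 in the stronger 2185 peaks (15.2%). Without a replicate they numbered 13 to 16 (17.5 to 19.1%). Fewer peaks enter in both cases. Without replicate 1 the count was 13, against 17.5% of all protein-coding genes. Peaks with an E-box word numbered 5 within 100 bp (35.7% of all IDR peaks) and 8 over whole peaks (54.6%), against 2 within 50 bp (23.1%), since longer windows hold more words. The relative signal of the rpr upstream peak rose from 0.890 to 0.979 when summits up to 200 bp apart were matched. This brings in the replicate 2 summit, which lay closer to a weaker second summit of the pooled relaxed list. Alternatives were run for the rpr upstream peak and the 5 at promoters or in bodies of the 9 genes, and for no other relative signal. Those 5 moved by less than 1 SD under other matching distances and another unit. Leaving out 1 of 3 values cannot move a mean by 1 SD, so these ranges describe the spread only. They ran from 1.31 to 1.52 at Diap1, 1.15 to 1.62 at hid, 0.693 to 0.960 at Dronc, 0.988 to 1.18 and 0.906 to 1.22 at the first and inner p53 starts, and 0.834 to 0.946 upstream of rpr. Unknown depth limits every statement that a gene had no peak.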

Other observations

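Several pathway genes had IDR peaks in their bodies away from promoter windows, 9 of 51 in all, against 5.56% of all protein-coding genes and 26.0% of those of at least 10 kb. The JNK phosphatase gene puc, which feeds back on the pathway, had 4 such peaks (signals 156, 223, 191 and 128) and no promoter IDR peak. The strongest lay 6720 bp downstream of the nearest start, with relative signals of 1.31, 0.769 and 1.59 in replicates 1, 2 and 3, and the weakest held CACGTG within 50 bp of its summit. In mbc, 3 body peaks (279, 128 and 156) followed the promoter peak, and eff had 2 (300 and 115). These genes were singled out after their values were seen.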
